A study of Mus musculus with 39 samples.

Results

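The 9 genes described here are the cell cycle inhibitors Cdkn1a, Cdkn1b, Cdkn2a and Cdkn2b, the tumour suppressor Trp53 and its inhibitor Mdm2, the stress cytokine Gdf15, the stress-responsive gene Sesn2 and the nuclear lamina gene Lmnb1. They were taken as a list of symbols, and all 9 were found among the 43430 Ensembl genes of the counts table. The study sequenced RNA from 39 libraries of sorted lung cells of C57BL/6J mice. Of these, 20 were lung monocytes of naive mice and 19 were Siglec F-low alveolar macrophages of mice treated with bleomycin, which causes lung injury followed by fibrosis. Young and old mice were each treated with saline or with ISRIB, a compound that counters the integrated stress response, which made 4 groups per cell type and 8 groups in all: young saline, young ISRIB, old saline and old ISRIB, each with 5 libraries except young ISRIB macrophages with 4. Ages differ between the sources: the labels have 8 to 12 weeks for young mice and more than 18 months for old ones, and the text on the series has 3 to 5 and 18 to 24 months. Injections into the peritoneum were daily from day 7, and macrophages were collected on day 21 after bleomycin. No such timing is stated for naive mice. Cell type and bleomycin went together in this design, so their parts in a difference between the cell types cannot be told apart.

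Senescent cells leave the cell cycle for good while staying metabolically active, and many of them secrete cytokines. p53, the product of Trp53, is held low by the ubiquitin ligase MDM2 and, when released by DNA damage or other stress, switches on genes that include Cdkn1a, Mdm2 itself, Gdf15 and Sesn2, while the INK4 proteins made from Cdkn2a and Cdkn2b restrain the cyclin D kinases. Loss of lamin B1 is commonly used as a mark of senescence, and Gdf15 and Sesn2 are also induced by the transcription factors of the integrated stress response.

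All 9 are protein-coding genes, placed here by GENCODE vM21 on GRCm38, and each value is a sum of reads over the gene's exons. The annotation has Trp53 (ENSMUSG00000059552) at chr11:69580359-69591873 on the plus strand and Mdm2 (ENSMUSG00000020184) at chr10:117688875-117710758 on the minus strand. It has Cdkn1a (ENSMUSG00000023067) at chr17:29090976-29100727 on the plus strand and Cdkn1b (ENSMUSG00000003031) at chr6:134920401-134925513 on the plus strand. The INK4 genes are neighbours, with Cdkn2a (ENSMUSG00000044303) at chr4:89274471-89294653 on the minus strand and Cdkn2b (ENSMUSG00000073802) at chr4:89306299-89311039 on the minus strand. It has Gdf15 (ENSMUSG00000038508) at chr8:70629393-70632456 on the minus strand and Sesn2 (ENSMUSG00000028893) at chr4:132492032-132510501 on the minus strand. Lmnb1 is ENSMUSG00000024590.

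Upstream sequences of the 2 members that rose with age in the macrophages are shown because both are known p53 targets. In the RefSeq promoter table (GRCm38.p6, windows of 300 bases, 250 of them upstream of a start), 8 of the 9 members had at least 1 window, 11 windows in all. No window was matched to Lmnb1. The p53 consensus site, searched for by name as a pair of half-sites 0 to 13 bases apart (a pattern that reads the same on both strands), was found in 24 of 32851 windows (0.0731%) and in 1 of the 11 windows of the members, that of the upstream Cdkn1a start. It spans chr17:29090906-29090937 and begins 73 bases before that start. Single half-sites were found in 8.36% of all windows and in windows of Cdkn1a, Mdm2 and Trp53. The 250 bases before the upstream Cdkn1a start (chr17:29090729-29090978, plus strand) and before the Gdf15 start that has the higher coordinate (chr8:70632457-70632706, minus strand) are given 5′ to 3′, with the p53 site in capitals.
Cdkn1a: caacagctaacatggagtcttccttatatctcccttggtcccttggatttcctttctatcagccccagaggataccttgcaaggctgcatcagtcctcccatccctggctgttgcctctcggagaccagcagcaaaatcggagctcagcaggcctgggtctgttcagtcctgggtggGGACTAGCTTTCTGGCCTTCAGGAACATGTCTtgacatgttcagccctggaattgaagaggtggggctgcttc
Gdf15: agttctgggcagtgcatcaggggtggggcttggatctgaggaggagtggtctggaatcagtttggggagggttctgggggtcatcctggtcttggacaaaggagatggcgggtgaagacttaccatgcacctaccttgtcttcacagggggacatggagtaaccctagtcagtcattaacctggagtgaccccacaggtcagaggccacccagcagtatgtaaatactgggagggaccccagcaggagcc
The printed Gdf15 stretch has no such pair of half-sites. A match is a description of the letters and not evidence of binding.

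The library totals ran from 4595331 to 16056708 counts. Levels are given as CPM, counts brought to a common library total and scaled by the TMM factors of all 39 libraries. As a check of the labels, the summed CPM of 7 macrophage markers was 7783 to 17272 in the macrophage libraries and 1217 to 3117 in the monocyte libraries. Young saline monocytes replicate 4 stood apart from the rest: it had the lowest total and the lowest median correlation with its own group (0.948), followed by young ISRIB macrophages replicate 3 (0.971). In such bulk samples, fewer cells of a type and less RNA per cell cannot be told apart. Nothing in the labels says that the libraries of a group came from separate animals, so p-values measure the spread between these samples, which may be technical. Tests of differences used edgeR's quasi-likelihood method, and a gene was called when its p, adjusted over all genes tested, was under 0.05.

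Among these genes, Cdkn1a and Gdf15 differed between old and young macrophages. Averaged over saline and ISRIB, Cdkn1a, which encodes the CDK inhibitor p21, was 1.46-fold higher in old than in young macrophages, and Gdf15 was 2.47-fold higher. Cdkn2a, which encodes p16 and p19ARF, was also called, from very few reads. The other 6 members were not called. At this contrast edgeR called 3 of the 9 members, all higher in old mice, against 4.86% of all 12171 genes tested (380 higher, 212 lower). Cdkn2a passed the filter on low counts only through old libraries, which favoured its direction, and without it the count was 2 of 8. The count of all members was 2 with limma voom, where Cdkn2a was lost, 2 in a single fit of all 39 libraries, where Cdkn1a was lost, and 3 with DESeq2. The members were chosen with earlier results of these data known, so these counts are no independent support.

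**Figure D1:**
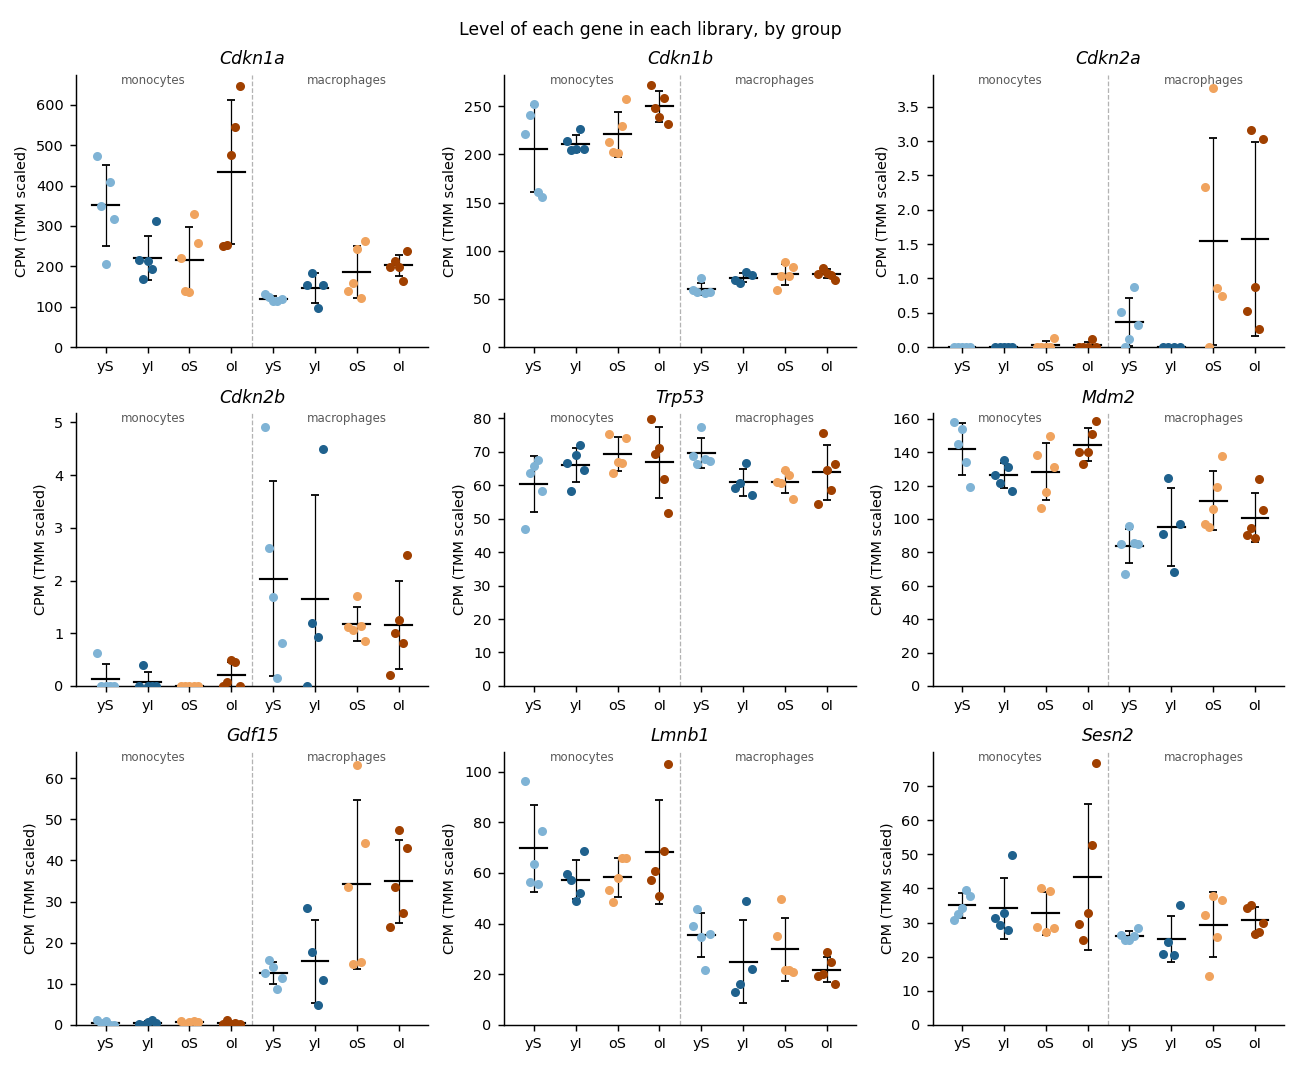
Level of each of the 9 genes in each library, on linear axes of TMM-scaled CPM that start at 0. Points are libraries, bars are group means with SD (cut at 0), and yS, yI, oS and oI stand for young saline, young ISRIB, old saline and old ISRIB, with the 4 monocyte groups on the left of each panel. Old macrophages held the highest Gdf15 and Cdkn2a levels, and Cdkn1b in every monocyte library lay above every macrophage library.

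Trp53 lay at the head of the pathway and was among the steadiest of these genes. In young saline macrophages it was at 68.8, 66.4, 77.5, 68.0 and 67.3 CPM in replicates 1 to 5. In old saline macrophages it was at 61.1, 60.6, 64.5, 62.9 and 55.9 CPM. The old libraries were all below the young ones, a separation shown by 2.85% of the genes tested there, and the difference was -0.19 ± 0.09 (log2, SE) and not called (edgeR, adjusted p = 0.390).
With ISRIB the Trp53 groups overlapped, with 59.2, 60.8, 66.5 and 57.0 CPM in young and 54.4, 75.7, 64.4, 58.5 and 66.4 CPM in old macrophages. That difference was 0.07 ± 0.10 (edgeR, adjusted p = 0.855). In monocytes Trp53 ran from 46.8 to 79.8 CPM over the 20 libraries, with no comparison of age or ISRIB called.

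Mdm2, whose product marks p53 for destruction and which is itself a p53 target, was at 85.0, 67.2, 95.5, 85.8 and 85.1 CPM in young saline macrophages. The old saline libraries were at 97.1, 94.99, 105.7, 119.0 and 137.8 CPM. The groups overlapped by a single young library, replicate 3, whose 95.5 CPM was just above the lowest old value. The difference was 0.41 ± 0.13 (log2, SE) and was not called (edgeR, adjusted p = 0.151).
With ISRIB, Mdm2 was at 90.7, 124.6, 68.4 and 97.0 CPM in young and 90.1, 94.7, 88.7, 124.2 and 105.6 CPM in old macrophages, a difference of 0.08 ± 0.14 (edgeR, adjusted p = 0.886). Averaged over both treatments it was 0.24 ± 0.10 with an adjusted p of 0.171 by edgeR, and 0.0485 without young ISRIB replicate 2. In monocytes Mdm2 lay between 106.8 and 158.6 CPM, and the groups overlapped.

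Cdkn1a in young saline macrophages was tightly grouped, at 130.4, 123.4, 113.1, 113.7 and 119.4 CPM. In old saline macrophages it was at 140.0, 159.7, 244.1, 120.3 and 262.8 CPM. Replicates 3 and 5 were far above every young library and replicate 4 lay within the young range. The difference was 0.63 ± 0.17 (log2, SE) and missed the threshold (edgeR, adjusted p = 0.0674), which it passed without old saline replicate 1, 2 or 4 (adjusted p as low as 0.0242).
With ISRIB it was at 153.7, 183.9, 95.9 and 152.4 CPM in young macrophages. In old macrophages with ISRIB it was at 199.0, 213.4, 197.5, 163.1 and 237.1 CPM. The old libraries were higher except that replicate 4 was below the young replicate 2, and the difference of 0.46 ± 0.18 was not called (edgeR, adjusted p = 0.267).
The average of the 2 age differences was 0.55 ± 0.13 and was called (edgeR, adjusted p = 0.0105). Over both treatments Cdkn1a was at 131.8 ± 26.9 CPM (SD, n = 9) in young and 193.7 ± 47.1 CPM (SD, n = 10) in old macrophages. With any 1 macrophage library left out the edgeR call remained (adjusted p at most 0.0261 over 19 fits), and in the single fit of all 39 libraries the adjusted p was 0.104.

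In monocytes Cdkn1a, higher than in macrophages, varied most among the well-expressed members. In young saline monocytes it was at 472.2, 349.2, 206.9, 409.1 and 317.7 CPM. In old saline monocytes it was at 219.8, 138.6, 137.5, 328.4 and 258.2 CPM. The groups overlapped, and the difference was -0.68 ± 0.28 (log2, SE; edgeR, adjusted p = 0.441).
With ISRIB it was at 214.7, 167.6, 213.6, 192.7 and 312.8 CPM in young monocytes. In old monocytes with ISRIB it was at 250.1, 252.0, 476.5, 544.8 and 647.5 CPM. Here 3 old libraries were above every young one and the other 2 lay within the young range, with a difference of 0.97 ± 0.28 (edgeR, adjusted p = 0.381).
Cdkn1a was thus lower in the old mean under saline and higher in the old mean under ISRIB. The difference between the ISRIB effects, old minus young, was 1.66 ± 0.39, with an unadjusted p of 0.000316 and an adjusted p of 0.478 by edgeR, so it was not called, and 0% of the 12170 genes were. It was called in 2 of 7 alternative fits, without a filter on low counts and in the single fit of all 39 libraries, where the adjusted p values were 0.0243 and 0.0327. The summed CPM of 5 nonclassical monocyte markers overlapped between the 4 monocyte groups, with medians of 3748 in young saline, 3374 in young ISRIB, 2923 in old saline and 3689 in old ISRIB. All 5 of these markers were detected in each group, and their part in the Cdkn1a values was not tested.

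For the other members the age comparisons in monocytes gave no call either. Only 6 of the 9 members passed the filter on low counts there, since Cdkn2a, Cdkn2b and Gdf15 were too low. By edgeR 0 of these 6 were called under saline, under ISRIB or on average, against 0.0247%, 0% and 0.123% of the 12170 genes. At an unadjusted p under 0.05 there was 1 member in each comparison, against 1072, 803 and 1003 of the 12170 genes. DESeq2 and limma voom called 0 members. Across both ages and treatments Sesn2 ran from 24.9 to 76.8 CPM and Lmnb1 from 48.4 to 102.9 CPM in monocytes, and in each case old ISRIB replicate 5 was the highest library.

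**Figure D2:**
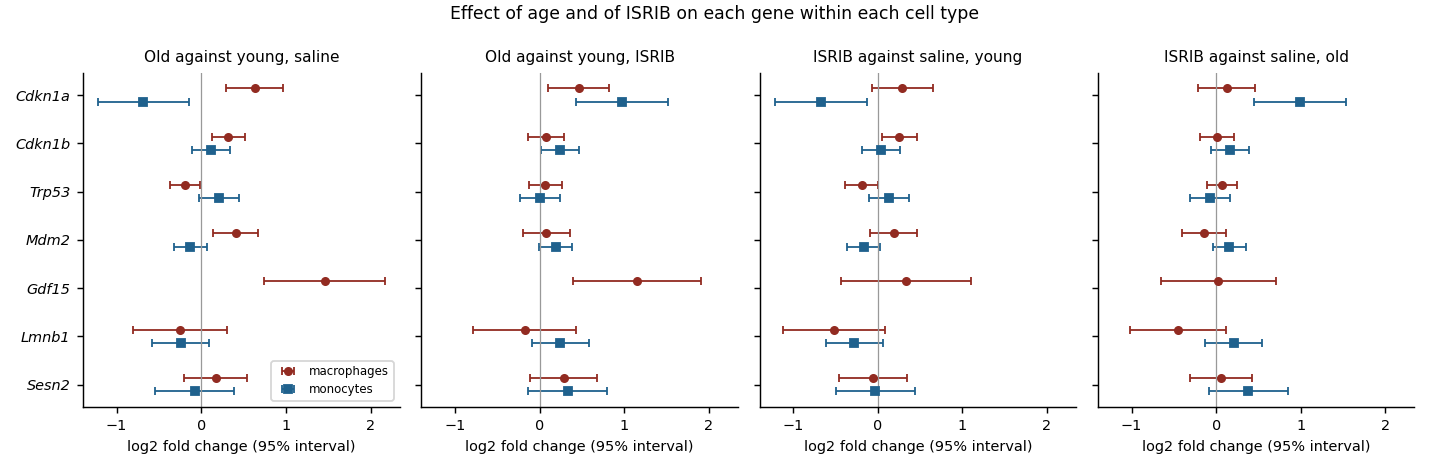
Log2 fold change with its 95% interval for 7 members in the 4 comparisons between 2 groups, for macrophages (red circles) and monocytes (blue squares), from separate edgeR fits. Cdkn2a and Cdkn2b are left out because of their low counts, and Gdf15 has no monocyte value. The age differences of Gdf15 in macrophages lie furthest to the right, at 1.46 and 1.15, and the monocyte differences of Cdkn1a lie on opposite sides of 0.

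Cdkn1b, which encodes p27, the CDK inhibitor tied to quiescence, was at 59.3, 57.4, 71.6, 56.2 and 57.2 CPM in young saline macrophages. In old saline macrophages it was at 58.9, 73.4, 88.4, 73.5 and 82.6 CPM. Of the old libraries 4 were above every young one and replicate 1 lay among them, and the difference of 0.32 ± 0.10 (log2, SE) was not called (edgeR, adjusted p = 0.133) unless replicate 1 was left out (0.0337).
With ISRIB the macrophage groups overlapped, at 70.0, 66.1, 77.7 and 74.7 CPM in young and 76.2, 82.1, 77.2, 74.9 and 69.1 CPM in old mice. The average age difference in macrophages was 0.20 ± 0.07 (edgeR, adjusted p = 0.131, and 0.0429 without old saline replicate 1). In monocytes with ISRIB it was at 214.0, 204.9, 205.7, 225.8 and 205.4 CPM in young mice and 271.9, 248.3, 238.4, 258.7 and 231.2 CPM in old mice. These 2 groups did not overlap, which held for 1.6% of the genes tested there, and the difference of 0.24 ± 0.11 was not called (edgeR, adjusted p = 0.761).

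Cdkn2a had 150 counts in the 19 macrophage libraries and 2 in the 20 monocyte libraries. In saline macrophages the counts were 3, 0, 1, 6 and 5 in young mice and 21, 0, 40, 6 and 7 in old mice. With ISRIB they were 0 in each of the 4 young libraries and 5, 25, 7, 2 and 22 in the old ones. The ISRIB groups did not overlap, as was so for 4.87% of the genes, and the summed level in old mice was at least 15.8-fold higher, taking 3 counts over the young group as its floor.
Under saline the ratio of the summed levels, old to young, was 4.93 (95% interval 2.81 to 9.25). That interval, like the floor, covers counting error only. Reads are counted per gene, so transcripts for p16 and for p19ARF cannot be told apart.
The averaged age difference in Cdkn2a was called by edgeR (adjusted p = 0.0101), but limma voom gave an adjusted p of 0.0815. The filter asked for about 1.25 CPM in 4 libraries, and Cdkn2a reached that in exactly 4, all old: saline replicates 1 and 3 and ISRIB replicates 2 and 5, with 108 of its 150 counts (72%). Since it passed only through old libraries, its call is no independent support for an age difference. Without any 1 of those 4 libraries it was not tested.

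Cdkn2b, the neighbouring INK4 gene that encodes p15, had 218 counts in macrophages and 18 in monocytes. In saline macrophages the Cdkn2b counts were 29, 20, 14, 1 and 13 in young mice and 10, 9, 18, 8 and 8 in old mice. With ISRIB they were 0, 10, 6 and 28 in young mice and 2, 8, 10, 6 and 18 in old mice. Young libraries held both the highest and the lowest values. The averaged age difference was -0.63 ± 0.59 (log2, SE), not called by edgeR (adjusted p = 0.645), and its sign was positive with limma voom (0.32).

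Gdf15 encodes a secreted member of the TGF-beta superfamily that is released by stressed cells. In young saline macrophages it was at 12.7, 15.7, 14.1, 8.66 and 11.4 CPM. In old saline macrophages it was at 33.4, 14.8, 63.2, 15.2 and 44.2 CPM. Old replicates 1, 3 and 5 were each at more than the highest young level, and replicates 2 and 4 lay within the young range.
This difference of 1.46 ± 0.37 (log2, SE), or 2.75-fold, was called (edgeR, adjusted p = 0.0464). It was the single member called of 9 there, against 1.16% of all genes. At an unadjusted p under 0.05 by edgeR there were 6 of the 9, against 1545 of 12171 genes. Among these 6, Trp53 was lower in old mice, and Cdkn2a had passed the filter only through old libraries. The call did not hold with DESeq2 (adjusted p = 0.0509) or limma voom (0.120), nor without any 1 young saline replicate or without old saline replicate 1, 3 or 5, with adjusted p values from 0.0128 to 0.158 over the 10 fits that left out a library.
With ISRIB, Gdf15 was at 28.4, 17.7, 4.80 and 10.9 CPM in young and 23.7, 33.6, 47.5, 27.3 and 42.9 CPM in old macrophages. The groups overlapped through young replicate 1, and the difference was 1.15 ± 0.39 (edgeR, adjusted p = 0.168). In that comparison edgeR called 0 of 9 members, against 0.937% of all genes. There 3 members, Cdkn2a among them, had an unadjusted p under 0.05, against 1485 of 12171 genes. DESeq2 called 1, Cdkn2a, and limma voom 0. Without young replicate 1 edgeR called Gdf15 (adjusted p = 0.0477), and without old replicate 4 it called Cdkn2a (0.0429).
Averaged over both treatments the difference in Gdf15 was 1.30 ± 0.27 (edgeR, adjusted p = 0.00399), with 13.8 ± 6.67 CPM (SD, n = 9) in young and 34.6 ± 15.2 CPM (SD, n = 10) in old macrophages. It was called in all 7 alternative fits (adjusted p at most 0.0146) and in the 19 that left out a library (at most 0.0147). The age difference in macrophages was not shown to differ from that in monocytes for any member. The test of the difference called 0 of the 8 members that could be fitted, against 0.743% of 13587 genes. At an unadjusted p under 0.05 there were 0 members, against 1557 of the 13587 genes, and DESeq2 and limma voom called 0 members.

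Markers of some other cell types differed with age, or followed these genes, in the same macrophage libraries. The summed CPM of 7 B and plasma cell markers was 2.47 to 5.97 in young saline, 3.89 to 12.0 in young ISRIB, 13.5 to 137.8 in old saline and 59.6 to 215.2 in old ISRIB macrophages. No marker of the list was at 0 in all libraries of a group, and Igkc led it with 71.7 CPM on average in old ISRIB macrophages. The sum of 7 T and NK cell markers was at most 5.68 CPM in young and 5.05 to 20.4 CPM in old macrophages, with Ncr1 at 0 in both young groups.
Over the 19 macrophage libraries the B and plasma cell sum had a Pearson r of 0.84 with Cdkn1a and 0.84 with Gdf15 (log2 scale), and 0.75 and 0.71 after each group's mean was taken off. For the T and NK cell sum r was 0.66 with each gene, and 0.18 and 0.19 after group means were taken off. Some other marker sums also followed Cdkn1a and Gdf15. The sum of 6 neutrophil markers, 57.7 to 95.1 CPM in young and 61.7 to 126.6 CPM in old macrophages, had r of 0.64 and 0.66 (0.47 and 0.63 with group means off), and its defining marker Ly6g was at 0 in all macrophage libraries. The sum of 6 dendritic cell markers, 2.99 to 7.46 CPM in young and 2.90 to 19.6 CPM in old macrophages, had r of 0.66 and 0.56 (0.45 and 0.29). For 10 markers of mature alveolar macrophages, 6587 to 10163 CPM in young and 6753 to 16190 CPM in old mice, r was 0.64 and 0.52 (0.38 and 0.20). For 6 classical monocyte markers it was 0.59 and 0.45 (0.35 and 0.15). Chil3 is in both of these lists, so their sums share a gene and are not separate relations. The sum of 5 nonclassical monocyte markers ran the other way, with r of -0.55 and -0.63 (-0.12 and -0.51). The remaining lists followed these genes less or not at all. With Cdkn1a and Gdf15, r was -0.06 and -0.10 for epithelium and -0.06 and -0.11 for erythroid markers. It was -0.30 and -0.30 for fibroblast and -0.25 and -0.30 for macrophage markers. For endothelium it was 0.31 and 0.40, and for eosinophil markers 0.39 and 0.35. All of these sums and levels come from the same libraries, which differ in depth and age group. The part of such RNA in the levels of Cdkn1a and Gdf15 was not tested.

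Sesn2, whose product sestrin 2 restrains mTORC1 and limits oxidative damage, was at 26.2, 24.9, 24.8, 26.1 and 28.4 CPM in young saline macrophages. The old saline libraries were at 32.3, 14.4, 37.7, 25.8 and 36.7 CPM. The old group held both the lowest and the highest level, and the difference was 0.17 ± 0.19 (log2, SE; edgeR, adjusted p = 0.791). Averaged over both treatments it was 0.23 ± 0.14 (edgeR, adjusted p = 0.414).

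Lmnb1, which encodes lamin B1, was at 38.95, 45.5, 34.7, 21.7 and 35.8 CPM in young saline macrophages. Old mice given saline had 35.2, 49.6, 21.6, 21.7 and 20.8 CPM. The groups overlapped over most of their range, and the difference was -0.25 ± 0.28 (log2, SE; edgeR, adjusted p = 0.803).
With ISRIB it was at 12.9, 16.2, 48.7 and 21.8 CPM in young macrophages. In old macrophages with ISRIB it was at 19.4, 19.9, 28.9, 24.7 and 16.3 CPM. Young replicate 3 stood well above the other 8 ISRIB libraries. The ISRIB difference averaged over both ages was -0.48 ± 0.21 and was not called (edgeR, adjusted p = 0.248). Without that replicate it was -0.76 and was called (edgeR, adjusted p = 0.0150).

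In the main fits ISRIB left no called difference among these genes, Lmnb1 included. In macrophages edgeR called 0 of the 9 members in young mice, in old mice and on average, against 0%, 0% and 0.83% of 12171 genes. At an unadjusted p under 0.05 there were 2, 0 and 2 members, against 1513, 1112 and 2019 of the 12171 genes. DESeq2 and limma voom called 0 members in each. The difference between the ISRIB effects in old and in young macrophages gave a call in 0 of 9 members and 0% of genes. There 1 member had an unadjusted p under 0.05, against 621 of the 12171 genes, and DESeq2 and limma voom called 0 members. In monocytes edgeR called 0 of 6 members in each of the same 4 comparisons, against 0% of 12170 genes. At an unadjusted p under 0.05 there were 1, 1, 0 and 2 members, against 809, 918, 911 and 865 of the 12170 genes. DESeq2 and limma voom called 0 members.
The intervals show what these data allow. For Gdf15 in old macrophages the ISRIB difference was 0.02 on the log2 scale with a 95% interval of -0.66 to 0.71. For Cdkn1a in old macrophages it was 0.12 with an interval of -0.21 to 0.46.

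Macrophages and monocytes differed in most of these genes, as in most genes: edgeR called 7 of the 8 members that could be fitted, against 79.2% of 13587 genes. Higher in monocytes were Cdkn1a (-0.87 ± 0.13, log2 macrophage minus monocyte with SE), Cdkn1b (-1.65 ± 0.06), Mdm2 (-0.47 ± 0.06), Lmnb1 (-1.20 ± 0.13) and Sesn2 (-0.38 ± 0.12). The largest edgeR adjusted p among these 5 was 0.00322, for Sesn2. Cdkn1b ran from 155.6 to 271.9 CPM in monocytes and from 56.2 to 88.4 CPM in macrophages, with no overlap.
Higher in macrophages were Gdf15 and Cdkn2b. Both were too low in monocytes and passed the filter on low counts only through macrophages, which favoured their direction. Their calls are therefore no independent support for a difference between the cell types. Gdf15 was at most 1.16 CPM in monocytes, with 97 counts in all 20 libraries and 3 libraries at 0, and at least 4.80 CPM in macrophages. The ratio of its summed levels was 46.9 (95% interval 38.3 to 58.0, counting error only). For Cdkn2b that ratio was 13.5 (8.31 to 23.1), with 15 of 20 monocyte libraries at 0. Cdkn2a, at 0 in 18 of 20 monocyte libraries, could not be fitted by edgeR, and the ratio of its summed levels was 83.3 (22.7 to 694).
Trp53 was at 64.0 ± 6.15 CPM (SD, n = 19) in macrophages and 65.7 ± 7.78 CPM (SD, n = 20) in monocytes, a difference of -0.04 with a 95% interval of -0.14 to 0.06 and not called (edgeR, adjusted p = 0.469).

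To compare genes with each other, levels were divided by the length of the merged exons in kb. On that scale Cdkn1a was the highest member in both cell types, at 46.3 ± 13.9 CPM per kb (SD, n = 19) in macrophages and 86.0 ± 39.5 (SD, n = 20) in monocytes. In macrophages Mdm2 came next at 19.2 ± 3.61, followed by Trp53 at 15.8 ± 1.52, Cdkn1b at 15.6 ± 2.08, Gdf15 at 13.4 ± 8.52, Lmnb1 at 9.50 ± 3.85 and Sesn2 at 8.05 ± 1.75, and neighbours in this order differed by less than the larger SD of the 2 except for Cdkn1a and Mdm2. Cdkn2b and Cdkn2a were lowest at 1.08 ± 0.948 and 0.781 ± 1.04. The 8 groups were also ordered by their mean. Ranges of neighbouring groups overlapped in 7 of 7 steps for 6 members and in 6 of 7 for Cdkn1b, Gdf15 and Lmnb1. Their single gap lay between a monocyte group and its neighbouring macrophage group. For Lmnb1 the cell types as a whole overlapped, with up to 49.6 CPM in macrophages and as little as 48.4 CPM in monocytes.

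For age in macrophages, averaged over treatment, the counts of called genes in the wider pathways are to be read against 4.86% of all 12171 genes, 380 of them higher and 212 lower. The lists were chosen with earlier results of these data known, so their counts are not independent of the data. Of 33 further p53 targets tested, edgeR called 5 higher in old mice and 0 lower, with a median log2 difference of 0.17 against 0.00 over all genes. These included Psrc1 (1.42 ± 0.30), Gadd45a (0.78 ± 0.15), a DNA damage response gene, and Phlda3 (0.43 ± 0.11). Their adjusted p values by edgeR were 0.00496, 0.00275 and 0.0275. Gadd45a went from 12.5 ± 1.40 to 23.4 ± 3.12 CPM (SD, n = 5 each) between young and old saline macrophages. None of 15 p53 regulators was called, with 0 in either direction.
Among 31 CDK inhibitors, cyclins and RB-E2F genes 1 was called, Ccnd2, which encodes cyclin D2 and was higher by 2.23 ± 0.28. The 31 secreted factors linked to senescence had 5 called higher and 1 lower, with a median of 0.37. The largest rises among them were in Ccl5 (2.15 ± 0.43) and Cxcl3 (1.40 ± 0.38), both chemokines, and in the cytokine Il1a (1.01 ± 0.16). The growth factor Hgf fell by 0.66 ± 0.11. Of 22 stress genes under ATF4 and CHOP, 4 were called higher and 0 lower, among them Phgdh (1.05 ± 0.16), an enzyme of serine synthesis, Atf5 (1.01 ± 0.25) and Ppp1r15a (0.82 ± 0.13), which encodes the eIF2-alpha phosphatase subunit GADD34. None of 15 lamina and nuclear envelope genes was called. The group medians of the B and plasma cell and of the T and NK cell marker sums were also higher in old than in young macrophages. The part of such RNA in the levels of these list genes was not tested.
For ISRIB in macrophages, averaged over age, 0.83% of all genes were called. Beside that share, 1 of 33 p53 targets was called higher (Xpc, 0.57 ± 0.12), 1 of 31 cell cycle genes lower (Top2a, -0.87 ± 0.20) and 2 of 31 secreted factors lower (Lif, -1.07 ± 0.23, and Tgfb1, -0.20 ± 0.05). Of the 22 genes under ATF4 and CHOP, 1 was called, Atf5, which was higher (1.02 ± 0.24).

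Across the 19 macrophage libraries the level of Cdkn1a followed that of Gdf15, with a Pearson r of 0.85 and a Spearman rho of 0.84 on log2 CPM. After group means were taken off r was 0.75, and without the 2 libraries furthest from the median of Cdkn1a it was 0.80. Lmnb1 followed the mitotic kinase gene Cdk1, its most similar gene, with r of 0.92 (0.91 after group means were taken off), ahead of Shcbp1 (0.92) and Birc5 (0.91). Cdkn1a and Lmnb1 ran in opposite directions, with r of -0.57. The genes most like the others were Thbd, Jdp2 and Adgre5 for Cdkn1a (each 0.91), Ets1, Phf1 and Ccl3 for Gdf15 (each 0.90), Mindy1 for Mdm2 (0.85), Arhgap39 for Cdkn1b (0.80), Cdk2 for Trp53 (0.79) and Chic2 for Sesn2 (0.77). These values describe 19 libraries that differ in group and depth, and no test was made of them.

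**Figure D3:**
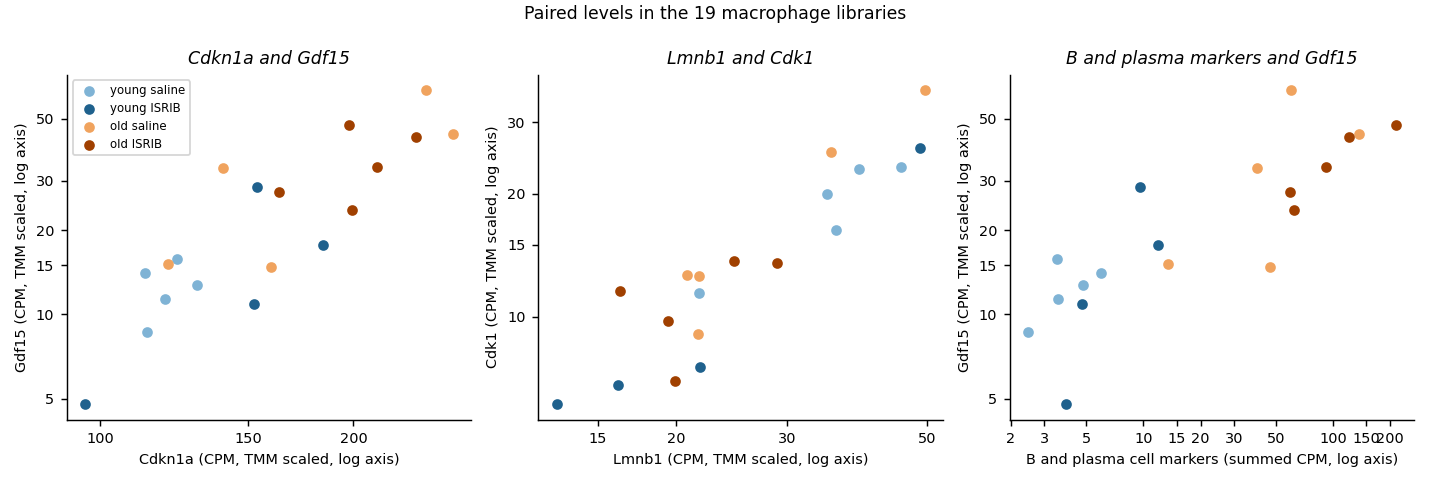
Levels in the 19 macrophage libraries on logarithmic axes, 1 point per library coloured by group: Gdf15 against Cdkn1a (TMM-scaled CPM), Cdk1 against Lmnb1 (TMM-scaled CPM), and Gdf15 against the summed CPM of 7 B and plasma cell markers. The points rise together in each panel, with r of 0.85, 0.92 and 0.84 on the log2 scale.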

How the data were processed

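The deposited table has, per the file headers, 1 column per library. Its values are whole numbers whose totals differ between libraries, and these deposited values were used as raw counts of reads per Ensembl gene. The submitters' processing notes name bcl2fastq 2.19.1, FastQC, Trimmomatic 0.36, STAR 2.6.0, HTSeq 0.11.2 and mm10. Neither the strand setting nor the annotation release was given in the sources used here. Without them, reads of Cdkn1a and of a transcript on the opposite strand that overlaps 273 of its exon bases, and has no row in the table, cannot be told apart. Libraries were made, per the labels' protocols, from 3 ng of total RNA with polyA selection. Samples were grouped by their titles and characteristics.

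Gene IDs were matched to GENCODE vM21 (GRCm38), which gave a symbol for 42462 of 43430 IDs. Genes were fitted with edgeR 4.0.16 in R 4.3.3 (TMM, filterByExpr with minimum count 10 and minimum total 15, 1 mean per group, no covariate) and adjusted by the Benjamini-Hochberg method. Macrophages (12171 genes), monocytes (12170) and all libraries (13587) were fitted separately. Alternatives were DESeq2 1.42.0, limma voom 3.58.1, RLE size factors, library totals, no filter, a replicate block, 1 fit of all libraries and leaving out each library. The fit was tested on simulated data. Correlations used log2 CPM with 1 added. The members and gene lists were chosen with earlier results of these data known. All 9 members were described in every comparison, and from each list up to 3 called genes per direction with the largest change, if the mean of their highest group reached 5 CPM. Pairs of libraries within groups were checked for duplicates, and their counts differed beyond sampling noise in each of the 76 (chi-square divided by its degrees of freedom 7.26 to 57.7).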

Additional observations from a re-analysis of the deposited data

Results flagged for a closer look

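In 68 groups of 4 or 5 libraries with any spread, the highest or lowest level of a member was compared with the others of its group by Dixon's test at the 95% level, which chance passes in about 1 in 20 groups, and 7 levels stood apart. Among macrophages, young saline replicate 3 held the highest Cdkn1b (71.6 CPM, the others 56.2 to 59.3) and the highest Trp53 (77.5 CPM, the others 66.4 to 68.8). Among monocytes, young ISRIB replicate 5 held the highest Sesn2 (49.8 CPM, the others 27.8 to 32.7). The remaining 4 were single libraries with 1 to 6 counts in groups otherwise at 0: Cdkn2a in old saline monocytes replicate 5 (0.137 CPM) and old ISRIB monocytes replicate 4 (0.112 CPM), and Cdkn2b in young saline monocytes replicate 1 (0.631 CPM) and young ISRIB monocytes replicate 2 (0.400 CPM). A group with a single library above 0 always passes this test, so the rate of 1 in 20 does not apply to these 4.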

How the results depend on the processing

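The number of members called kept within 1.5 times its value for age in macrophages averaged over treatment (3, with 2 to 3 over 7 alternatives and 2 to 4 with a library left out) and between cell types (7, with 7 to 8 over 6 alternatives). For age in saline macrophages it was 1, and it was 0 with DESeq2, limma voom, library totals, the replicate block and all 39 libraries in a single fit, 3 without a filter on low counts, and 0 to 2 with a library left out. For age in ISRIB macrophages it was 0, and it was 1 with DESeq2, 3 without the filter and 0 to 1 with a library left out. For ISRIB in macrophages it was 0, with 1 on average without the filter, and 0 to 1 with a library left out both on average and in young mice. In monocytes it was 0, with 1 without the filter for age under ISRIB and for the difference of ISRIB effects, and 1 for the latter in the single fit. No called change of a member reversed its sign, and the age difference of Cdkn2b, not called, was positive with limma voom. The cause of these changes was not tested. The replicate numbers were not used to pair the samples, since the labels do not say that they mark a shared litter or day. Same-numbered libraries of different groups had deviations with a median r of 0.00 in macrophages and -0.01 in monocytes, and 2 of 27 and 4 of 30 such pairs were over 0.1. For pairs with different numbers the medians were 0.00 and -0.01, and 6 of 108 and 23 of 120 pairs were over 0.1. These values do not settle whether a number marks something shared. With the replicate block the average age effect in macrophages called 497 genes in place of 592, and the average ISRIB effect 343 in place of 101. Over all genes, age in saline macrophages gave 141 calls, against 261 with DESeq2, 468 without the filter and 60 in the single fit, and age averaged over treatment gave 592, against 975 without the filter and 340 in the single fit. Age in ISRIB macrophages gave 114, against 215, 405 and 50, and the average ISRIB effect 101, against 417, 640 and 17, with DESeq2, without the filter and in the single fit, and 169 with limma voom. Scaling by library totals alone moved the share of calls that were higher in old saline macrophages from 80.9% to 64.4%. Low counts limited what could be read for Cdkn2a and Cdkn2b, and in monocytes for Gdf15.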

Other observations

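In monocytes the genes most like Cdkn1a, picked after its values had been seen, were Ets2 (Pearson r of 0.96 on log2 CPM over 20 libraries), Coq10b (0.96), Srgn (0.95), Dgat1 (0.94) and Nr4a2 (0.94). Sesn2 had an r of 0.60 with Cdkn1a in the same libraries, which fell to 0.28 without the 2 libraries furthest from the median of Cdkn1a. The Spearman rho was 0.51. Mdm2 had an r of 0.67 with Cdkn1a there (rho 0.62), and 0.57 without the 2 furthest libraries. In macrophages Mki67, a proliferation gene, had an r of 0.83 with Lmnb1 over 19 libraries and 0.78 after group means were taken off.

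Between the cell types edgeR called 79.2% of all 13587 genes, and nothing particular to a list is read from counts beside that share. Of 34 p53 targets tested, 18 were called higher and 10 lower in macrophages. Perp, a membrane protein of cell junctions, reached 1.22 CPM at most in monocytes and had a mean of 61.1 ± 6.36 CPM (SD, n = 5) in macrophages of young saline mice. Pmaip1, the apoptosis gene that encodes NOXA, was lower in macrophages by 4.10 ± 0.17 on the log2 scale, with 238 ± 76.0 CPM (SD, n = 5) in young saline monocytes. Of 15 lamina and nuclear envelope genes 7 were called higher and 6 lower in macrophages, against the same 79.2%. Lmna was at 559 ± 9.41 CPM in young saline macrophages and 40.2 ± 14.9 CPM in young saline monocytes (SD, n = 5 each), and Lbr, the lamin B receptor gene, was at 14.5 ± 1.99 and 309 ± 125 CPM. All of these differences carry the pairing of cell type with bleomycin.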
